A study of Danio rerio with 14 samples.

Results

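Zebrafish genes for the proteins that join cells to one another were followed over 5 times in the distal tip of the fin ray. The set was taken by gene symbol from a deposited table of 14836 genes. It held the claudins (symbols that start with cldn), the connexins (cx or gja to gje and a digit), the zonula occludens and occludin genes (tjp, ocln), the desmosomal genes (dsc, dsg, dsp, pkp, jup) and the numbered cadherins (cdh), without the endothelial cadherin cdh5. In all 84 symbols matched, and 49 of them reached at least 1 TPM in at least 2 of the 14 libraries. TPM is a transcript abundance that is scaled for length and for the sum of the library. The 49 were 18 of 31 claudins, 5 of 5 zonula occludens and occludin genes, 5 of 5 desmosomal genes, 14 of 29 connexins, 6 of 12 cadherins and dscc1. The last, like dscama below the limit, matches by spelling only: dscc1 is a DNA replication and sister chromatid cohesion factor, and it was not called at any time.

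Of the 35 genes below the limit, cx28.9, cx32.3, cx36.7, cx39.9, gjd2b and cdh15 were listed at 0 in the 14 libraries. The genes nearest to the limit from below were cldn19, cdh23 and cx28.6, whose second highest values were 0.706, 0.743 and 0.808 TPM. Just above it were gja5a at 1.06 TPM, cx52.9 at 1.33 TPM and cx28.8 at 1.64 TPM. gja5a passed through its 3 dpa libraries alone, so a difference between times was built into its choice. cx52.9 needed its 3 dpa libraries too, since outside them it reached 1 TPM only in 7 dpa replicate 1, at 1.25 TPM. The symbols cx40.8, tjp1a, tjp1b, dspa, jupb and pkp1b were not found in the values used here and so were not analysed. The family counts above are thus of the symbols found, not of whole families. The leopard pigment pattern connexin cx41.8 is gja5b here, by its RefSeq synonym.

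The study concerned Erk signalling and size memory in fin regeneration, and this experiment was bulk RNA-seq of wild-type (WT) animals alone, with no transgene, mutant or drug group. Each library was made from total RNA of the distal 250 µm of the rays, pooled over 10 animals, at 0, 3, 7 and 10 days post amputation (dpa, 3 libraries each) and 14 dpa (2 libraries). The group named 3 dpa in the sample titles is given as 3.5 days in the design text, and 3.5 was used wherever a slope over days was fitted. A strip of fixed length holds epidermis, connective tissue, bone-forming cells, vessels and nerves together. Libraries of a time are separate pools, so p-values measure the spread between pools. The total read number behind each library is unknown, since TPM does not keep it, and no counting interval could be given.

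Tight junctions are built from claudins and occludin, which seal the space between epithelial cells and set its ion permeability, with zonula occludens proteins (tjp genes) as the cytoplasmic scaffold. Desmosomes tie keratin filaments of neighbouring keratinocytes together through desmogleins and desmocollins, held by plakophilins and plakoglobin, and classical cadherins do the same for actin through catenins. Connexins form gap junction channels; cx43 is known in zebrafish from the short fin mutants, whose fin ray segments are short.

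Times were compared with limma on log2(TPM + 1), and a gene was called at a Benjamini-Hochberg adjusted p under 0.05 over 11272 genes. A log2 change on this scale understates the change of genes near 1 TPM. Correlations between libraries of a time lay between 0.953 and 0.991 across genes. 4 libraries, replicate 1 of 0 dpa, replicate 2 of 7 dpa, and replicates 2 and 3 of 10 dpa, stood apart on the second principal component (20.3% of the variance) and held 886 to 1700 TPM of the immediate early gene fosb, against 23.0 to 144 TPM in the others. Of the 49 genes, 20 were higher in these libraries than in the others at each of 0, 7 and 10 dpa, and 9 were lower. Over all genes tested these shares were 36.1% and 17.3%, so the set was close to the background in this. Counts are therefore given with and without them.

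Cell type markers moved between times too. Summed TPM of 10 superficial epidermis markers was 14990 to 18030 at 0 dpa, 6355 to 8794 at 3 dpa and 14380 to 14800 at 14 dpa, and 7 of the 10 fell at 3 dpa. The 7 basal epidermis markers tested summed to 57810 to 94270, 31520 to 38330 and 54290 to 56410 TPM at the same times (1 rose and 2 fell). Of these lama5 rose, krt5 and krtt1c19e fell, and tp63, lamb4, itgb4 and itga6b were not called. The 6 fibroblast markers, all called higher at 3 dpa, summed to 1145 to 1754, 14240 to 17470 and 3876 to 4751 TPM. Osteoblast markers summed to 191 to 276, 12720 to 12900 and 2290 to 2639 TPM (5 of 7 rose), and endothelial markers to 77.3 to 85.5, 199 to 222 and 117 to 142 TPM (7 of 7 rose). At 3 dpa most of the superficial, basal, fibroblast and osteoblast sums came from 1 gene each. These were krt4, krt5, col1a2 and col10a1a, with means of 5411, 32310, 12460 and 12420 TPM. Of the other lists, pigment cell markers fell in 5 of 6 cases, glia and nerve markers rose in 1 and fell in 3 of 4, macrophage markers fell in 2 of 3, muscle markers rose in 2 and fell in 1 of 4, and none of 2 ionocyte markers was called at 3 dpa. Of all genes tested 35.0% rose and 19.6% fell at 3 dpa. No list was at 0 as a whole in any library, but such sums do not measure how much of each tissue a strip held. In bulk tissue fewer cells of a type and less RNA per cell cannot be told apart, and the part of these shifts in the results that follow was not tested.

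At 3 dpa most tight junction and desmosomal genes, and the connexins at over 100 TPM at 0 dpa other than cx43.4, were lower than at 0 dpa, whereas N-cadherin (cdh2), cx43 and 3 other cadherins were higher. Against 0 dpa, 13 of the 49 genes were called higher and 29 lower at 3 dpa, where 35.0% of all genes tested were called higher and 19.6% lower. One of the 13 is gja5a, which entered through its 3 dpa values, and without it 12 of 48 were higher. The median log2 change of the 49 was -0.84, and that of all genes 0.24. At 7 dpa 13 were higher, gja5a among them, and 20 lower (background 21.5% and 9.07%, medians -0.50 and 0.19). At 10 dpa 11 were higher and 7 lower (14.0% and 2.73%, medians -0.22 and 0.16). By 14 dpa 9 were higher and 3 lower (10.1% and 1.08%; medians 0.03 and 0.30). The 4 comparisons share the 0 dpa libraries.

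Between successive times 12 genes were higher and 3 lower at 7 than at 3 dpa (background 9.14% and 7.57%). One of the 3 is gja5a, whose 3 dpa values brought it into the set. None was called between 7 and 10 dpa (background 0.0177% and 0%), where 13 of the 49 and 7.18% of all genes had an unadjusted p under 0.05 in limma. Library weights called 22 of the 49 and 28.5% of all genes there. At 14 against 10 dpa 6 were higher and 8 lower (5.14% and 3.64%). Over all times together the limma F test called 39 of the 49, gja5a among them, with a background of 47.6%. The slope from 3 to 14 dpa was upward for 24 genes and downward for 8, against 17.4% and 13.4% of all genes. Of the 29 genes lower at 3 dpa, each had its lowest mean there and 24 had an upward slope afterwards. The same 3 dpa libraries chose these genes and start the slope, and of all 2214 genes lower at 3 dpa 95.4% had their lowest mean there and 75.5% an upward slope. Of the 13 higher ones, 7 had their highest mean at 3 dpa and 8 a downward slope, against 81.2% and 37.9% of all 3945 genes higher at 3 dpa. The 13 and the 7 include gja5a. At 14 dpa 3 of the 29 were still called lower and 8 of the 13 still higher, where this held for 5.06% and 22.6% of all such genes.

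The scale of the libraries bears on these counts. With median-of-ratios scaling the median change of all genes at 3 dpa was 0.02 in place of 0.24. Of the called genes 49.5% were higher in place of 64.1%. Of the 49, 10 were then higher and 30 lower (26.1% and 26.6% of all genes tested). Among the called genes the share that was higher was 48.9% in place of 70.3% at 7 dpa and 58.5% in place of 83.7% at 10 dpa. It was 51.9% in place of 90.4% at 14 dpa and 39.1% in place of 58.5% at 14 against 10 dpa. The 49 then split into 11 higher and 22 lower at 7 dpa (16.1% and 16.9% of all genes tested) and 10 and 15 at 10 dpa (10.8% and 7.64%). The split was 5 and 6 at 14 dpa (2.41% and 2.24%) and 4 and 8 at 14 against 10 dpa (3.14% and 4.89%). Without the 4 libraries that stand apart, the split was 13 and 28 at 3 dpa (background 42.4% and 20.8%), 12 and 21 at 7 dpa (26.0% and 9.61%) and 12 and 10 at 14 dpa (28.0% and 2.58%), so calls over all genes rose with those of the set at 14 dpa. It was 8 and 9 at 10 dpa (11.5% and 1.85%) and 9 and 3 at 14 against 10 dpa (2.73% and 1.45%), but there 10 dpa keeps 1 library, which was assumed to vary like the other times.

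**Figure D1:**
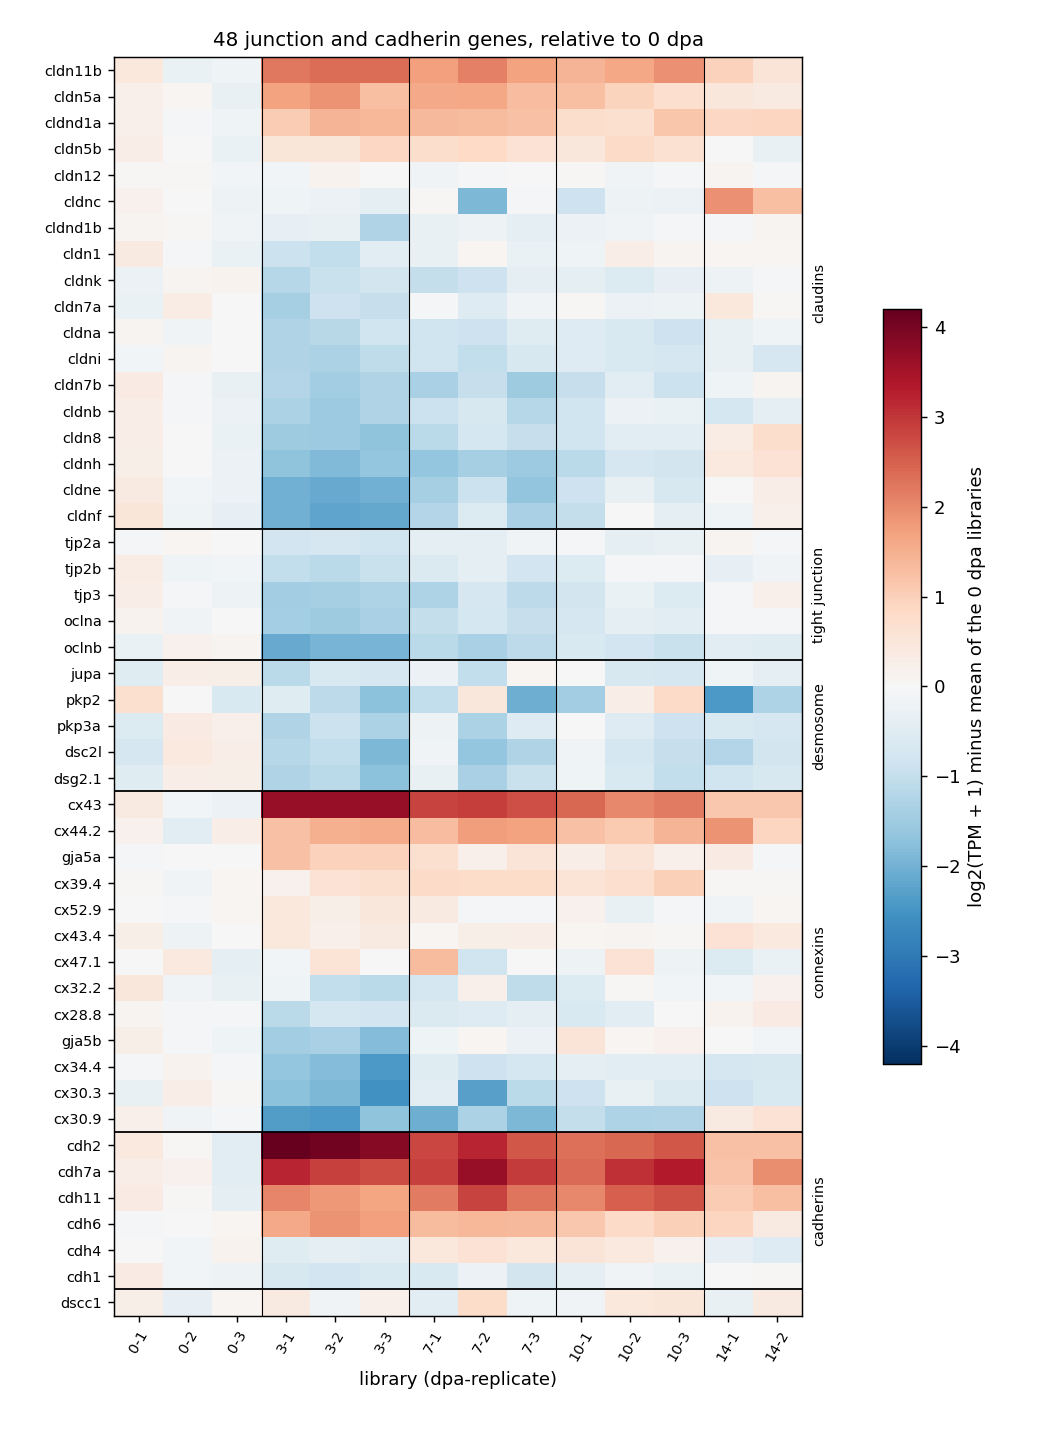
Change of 48 junction and cadherin genes in 14 libraries, as log2(TPM + 1) minus the mean of the 3 libraries of 0 dpa. Rows are genes ordered by family and by their change at 3 dpa, columns are libraries named by days post amputation and replicate, and red is higher. The blue block at 3 dpa holds 28 genes called lower, the red one the 13 called higher, cx43 and cdh2 the deepest among them.

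Claudins fell in 12 and rose in 4 of 18 cases at 3 dpa (19.6% and 35.0% of all genes), with a median log2 change of -1.02. 5 of them, cldnb, cldni, cldn7b, cldne and cldna, made up 90.4% to 94.5% of claudin TPM in every library, and each of the 5 fell. Their family's summed level went from 7438 to 9814 TPM at 0 dpa to 3074 to 3589 TPM at 3 dpa, then 4070 to 4804, 5043 to 6466 and 6755 to 7465 TPM at 7, 10 and 14 dpa.

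cldne was at 1773, 1247 and 1147 TPM at 0 dpa, 338, 313 and 338 at 3 dpa, 516, 736 and 436 at 7 dpa, 745, 1109 and 859 at 10 dpa and 1357 and 1667 at 14 dpa. cldne encodes a claudin of the outer epithelial layer of the embryo. The 3 libraries of 3 dpa were the lowest, all below every other library, and those of 14 dpa lay within the range of 0 dpa. The log2 change at 3 dpa was -2.04 ± 0.21 (adjusted p = 5.37e-06), and the slope afterwards was 0.21 ± 0.02 (adjusted p = 1.12e-05) per day. cldni was at 1835, 2133 and 1986 TPM at 0 dpa, 828, 788 and 940 at 3 dpa, 1107, 969 and 1243 at 7 dpa, 1358, 1283 and 1208 at 10 dpa and 1578 and 1227 at 14 dpa. All libraries from 3 to 10 dpa lay below the 0 dpa range, as did those of 14 dpa. The change was -1.22 ± 0.12 (adjusted p = 4.82e-06) at 3 dpa and -0.51 ± 0.14 (adjusted p = 0.0358) at 14 dpa; the latter was lost without either 14 dpa library (adjusted p = 0.0623 and 0.254), without 0 dpa replicate 2 or 3 (0.120 and 0.0891) or without 10 dpa replicate 2 (0.0510).

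cldn7b was at 1825, 1400 and 1152 TPM at 0 dpa, 617, 520.5 and 595 at 3 dpa, 558, 734 and 504 at 7 dpa, 729, 1036 and 773 at 10 dpa and 1262 and 1557 at 14 dpa. Claudin 7 is an epithelial claudin in mammals. Its libraries of 3 and 7 dpa were all lower than those of 0 and 14 dpa, which overlapped. The change at 3 dpa was -1.31 ± 0.19 (adjusted p = 0.000101), and at 7 dpa it was -1.28 ± 0.19 (adjusted p = 0.000294). cldn1 was at 154, 112 and 97.9 TPM at 0 dpa, 63.6, 57.5 and 87.6 at 3 dpa, 95.97, 127 and 98.9 at 7 dpa, 106, 146 and 128 at 10 dpa and 127 and 127 at 14 dpa. In mammals claudin 1 is needed for the epidermal water barrier. Its 3 dpa libraries were the lowest, and from 7 dpa on its values overlapped those of 0 dpa. The change at 3 dpa was -0.79 ± 0.20 (adjusted p = 0.00511), and its F test was lost without 3 dpa replicate 1 or 2 (adjusted p = 0.0674 and 0.0820). Of the remaining large claudins, cldnb changed by -1.38 ± 0.19 (adjusted p = 6.61e-05) and cldna by -1.08 ± 0.14 (adjusted p = 4.87e-05) at 3 dpa. cldnb had its mean at 2587 ± 494 TPM (SD, n = 3) at 0 dpa and 987 ± 87.2 TPM (SD, n = 3) at 3 dpa.

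cldnh was at 115, 96.3 and 80.2 TPM at 0 dpa, 29.1, 25.8 and 30.4 at 3 dpa, 30.4, 36.2 and 32.7 at 7 dpa, 43.8, 58.4 and 55.4 at 10 dpa and 128 and 146 at 14 dpa. Here both libraries of 14 dpa were above all others, and those of 3 and 7 dpa were below all others. The log2 change was -1.73 ± 0.16 (adjusted p = 1.91e-06) at 3 dpa and 1.38 ± 0.18 (adjusted p = 0.000921) between 10 and 14 dpa, one of the 2 late calls that held under every alternative. cldn8 was at 14.5, 11.5 and 9.45 TPM at 0 dpa, 3.49, 3.34 and 2.94 at 3 dpa, 4.80, 6.50 and 5.49 at 7 dpa, 6.06, 8.15 and 7.995 at 10 dpa and 14.7 and 20.2 at 14 dpa. The order was the same as for cldnh at its ends: lowest at 3 dpa, and both 14 dpa libraries highest. Its change at 3 dpa was -1.57 ± 0.20 (adjusted p = 3.22e-05), with a slope of 0.19 ± 0.02 (adjusted p = 4.66e-05) per day from there. cldnf, cldnk and cldn7a also fell at 3 dpa, by log2 changes of -2.12 ± 0.29, -0.96 ± 0.20 and -1.08 ± 0.21. cldnk marks myelinating glia in zebrafish.

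4 claudins went the other way. cldn11b was at 5.67, 3.04 and 3.35 TPM at 0 dpa, 21.9, 23.8 and 24.0 at 3 dpa, 15.3, 20.4 and 14.7 at 7 dpa, 12.2, 14.1 and 17.6 at 10 dpa and 8.53 and 6.20 at 14 dpa. Every library after 0 dpa was above the 0 dpa range, with 3 dpa highest. The change was 2.31 ± 0.22 (adjusted p = 3.16e-06) at 3 dpa and the slope afterwards -0.14 ± 0.02 (adjusted p = 0.000415) per day. In mammals claudin 11 is the tight junction strand protein of central myelin and of Sertoli cells. cldn5a and cldn5b, whose mammalian relative is the claudin of brain endothelium, changed by 1.61 ± 0.22 (adjusted p = 5.23e-05) and 0.64 ± 0.17 (adjusted p = 0.00723), and cldnd1a by 1.30 ± 0.18 (adjusted p = 5.77e-05). Mean levels at 0 and 3 dpa were 2.16 and 8.68 TPM for cldn5a, 38.5 and 59.95 TPM for cldn5b and 1.505 and 5.15 TPM for cldnd1a (n = 3 each). Endothelial markers moved in the same direction at 3 dpa (7 of 7 higher, 6 with median-of-ratios scaling and 5 with quantile normalization). So did fibroblast (6 of 6) and osteoblast (5 of 7) markers, and the part of any cell type was not tested. The cldn5b call was lost with median-of-ratios scaling (log2 change 0.38, adjusted p = 0.0513). cldnd1b was called lower (-0.64 ± 0.21, adjusted p = 0.0224), a call lost when the 4 libraries that stood apart were dropped (adjusted p = 0.0725), without 0 dpa replicate 1 or 2 (0.0586 and 0.0622) or without 3 dpa replicate 3 (0.0635).

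cldn12 was the flattest claudin, with means of 41.9 to 45.0 TPM at the 5 times and a log2 change at 3 dpa of 0.02 ± 0.12 (adjusted p = 0.896), not called. cldnc was at 3.97 ± 0.69 TPM (SD, n = 3) at 0 dpa and did not pass the test until 14 dpa, where its 2 libraries held 17.9 and 10.8 TPM. No other library was above 4.66 TPM. Its change of 1.59 ± 0.47 (adjusted p = 0.0458) was lost without either 14 dpa library (0.331 and 0.101), without any 1 library of 3 dpa (0.0585 to 0.0659), without 0 dpa replicate 2 or 3 (0.117 and 0.121) or without 10 dpa replicate 2 or 3 (0.0610 and 0.0594).

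All 5 zonula occludens and occludin genes fell at 3 dpa (19.6% of all genes), with a median log2 change of -1.38. All 5 had an upward slope afterwards (17.4% of all genes, and 75.5% of all genes lower at 3 dpa). The 3 dpa libraries in which they were low also start that slope. At 14 dpa none was called, with a median of -0.07 against 0.30 for all genes. In limma 1 of the 5 had an unadjusted p under 0.05 there (29.6% of all genes). Without the 4 libraries that stand apart 1 was lower at 14 dpa. oclnb was at 544, 752 and 709 TPM at 0 dpa, 153, 172 and 169 at 3 dpa, 300.2, 254 and 309 at 7 dpa, 423, 381 and 343 at 10 dpa and 478 and 461 at 14 dpa. Its 3 dpa libraries were the lowest by a wide margin, and no later library reached the 0 dpa range. oclna was at 841, 695 and 768 TPM at 0 dpa, 287, 269.5 and 300 at 3 dpa, 382, 457 and 394 at 7 dpa, 469.8, 573 and 552 at 10 dpa and 719 and 739 at 14 dpa. For oclna both 14 dpa libraries fell inside the 0 dpa range. Both genes encode occludin, a tight junction membrane protein outside the claudin family. The changes at 3 dpa were -2.004 ± 0.13 (adjusted p = 1.28e-07) for oclnb and -1.42 ± 0.11 (adjusted p = 4.87e-07) for oclna, and oclnb at 14 dpa was -0.49 ± 0.15 (adjusted p = 0.0507), not called.

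tjp3 was at 506, 407 and 358 TPM at 0 dpa, 153, 160.2 and 169.8 at 3 dpa, 169, 256 and 195 at 7 dpa, 246, 348 and 284 at 10 dpa and 392 and 486 at 14 dpa. tjp2a was at 205, 232 and 217 TPM at 0 dpa, 123, 132 and 121 at 3 dpa, 166, 163 and 198 at 7 dpa, 209, 169 and 174 at 10 dpa and 237 and 209.9 at 14 dpa. tjp2b was at 67.8, 48.3 and 50.1 TPM at 0 dpa, 26.3, 24.6 and 28.4 at 3 dpa, 35.9, 41.4 and 30.8 at 7 dpa, 36.5, 53.2 and 52.3 at 10 dpa and 42.9 and 49.2 at 14 dpa. These encode the scaffolds ZO-3 and ZO-2, which bind claudin tails to actin. For tjp2a and tjp2b the 3 dpa libraries were below all others, and for tjp3 7 dpa replicate 1 overlapped them. At 14 dpa each gene had at least 1 library in the 0 dpa range. The changes at 3 dpa were -1.38 ± 0.18 (adjusted p = 3.81e-05) for tjp3, -1.03 ± 0.18 (adjusted p = 0.000453) for tjp2b and -0.79 ± 0.12 (adjusted p = 0.000103) for tjp2a. The summed level of the 5 genes was 2102 to 2163 TPM at 0 dpa, 742 to 788 TPM at 3 dpa and 1869 to 1945 TPM at 14 dpa. In the libraries that stand apart tjp2b, tjp3 and oclna were higher and tjp2a and oclnb lower than in the others at each of 0, 7 and 10 dpa. The same held for 36.1% (higher) and 17.3% (lower) of all genes tested.

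**Figure D2:**
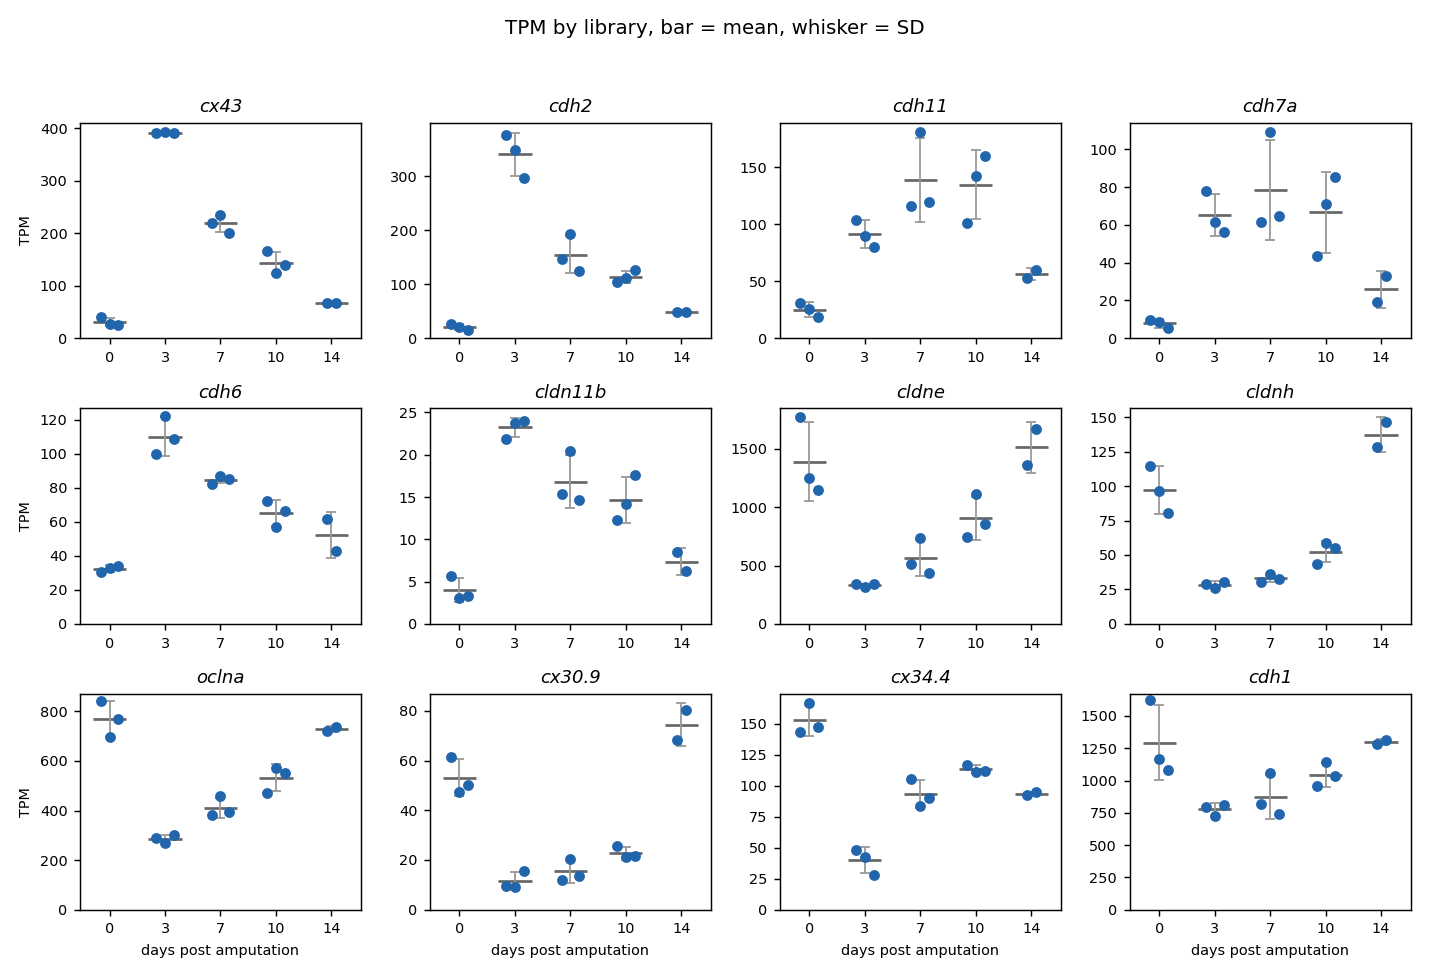
TPM of 12 named genes against days post amputation, 1 point per library, with a bar at the mean and a whisker for the SD (n = 3, and 2 at 14 dpa). Each panel has its own axis from 0. By mean, cx43, cdh2, cdh6 and cldn11b are highest at 3 dpa, cdh11 and cdh7a at 7 dpa, and the 6 other genes are lowest at 3 dpa. For cdh11 and cdh7a the 7 dpa mean is raised by 1 library.

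Desmosomal genes were the most abundant of the set, at 14610 to 26500 TPM in sum at 0 dpa, 7726 to 10820 TPM at 3 dpa and 12630 to 13350 TPM at 14 dpa. 4 of 5 fell at 3 dpa (median log2 change -1.17), 1 at 7 dpa and none at 10 or 14 dpa. The shares of all genes that fell were 19.6%, 9.07%, 2.73% and 1.08% at these times. dsg2.1 was at 5605, 9791 and 9506 TPM at 0 dpa, 3323, 3676 and 2420 at 3 dpa, 6414, 3098 and 4232 at 7 dpa, 7162, 5198 and 3970 at 10 dpa and 4517 and 5046 at 14 dpa. dsc2l was at 2526, 5463 and 4957 TPM at 0 dpa, 1772, 1987 and 1115 at 3 dpa, 3668, 1326 and 1694 at 7 dpa, 3669, 2470 and 2090 at 10 dpa and 1732 and 2372 at 14 dpa. These encode the desmosomal cadherins, desmoglein and desmocollin. The 3 dpa libraries were below every 0 dpa library in both. The changes at 3 dpa were -1.38 ± 0.29 (adjusted p = 0.00169) for dsg2.1 and -1.37 ± 0.39 (adjusted p = 0.00971) for dsc2l. Their ratio stayed between 1.75 and 2.61 in the 14 libraries.

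pkp3a was at 3997, 7463 and 6883 TPM at 0 dpa, 2435, 3173 and 2341 at 3 dpa, 5129, 2322 and 4015 at 7 dpa, 5850, 4071 and 3207 at 10 dpa and 3772 and 3608 at 14 dpa. jupa was at 2045, 3511 and 3426 TPM at 0 dpa, 1318, 1852 and 1767 at 3 dpa, 2474, 1415 and 3060 at 7 dpa, 2875, 1813 and 1776 at 10 dpa and 2556 and 2212 at 14 dpa. Plakophilin 3 and plakoglobin sit in the desmosomal plaque, and plakoglobin also binds classical cadherins. Again the 0 dpa libraries were above those of 3 dpa, with 0 dpa replicate 1 the lowest of its time. The changes were -1.17 ± 0.30 (adjusted p = 0.00618) for pkp3a and -0.84 ± 0.29 (adjusted p = 0.0280) for jupa. The jupa call was lost without 0 dpa replicate 2 or 3 (adjusted p = 0.104 and 0.0934) or without 3 dpa replicate 1 (0.104). pkp2 was at 441, 269 and 175 TPM at 0 dpa, 191, 128 and 82.5 at 3 dpa, 135, 379.8 and 65.5 at 7 dpa, 98.9, 335 and 481 at 10 dpa and 50.7 and 110.2 at 14 dpa. Plakophilin 2 differed in the libraries that stand apart: its highest library at 0, 7 and 10 dpa was one of them. Its change at 3 dpa was -1.11 ± 0.67 (adjusted p = 0.176), close in size to that of pkp3a but with a wider SE, and not called.

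The 4 libraries that stand apart split this family. dsg2.1, dsc2l, pkp3a and jupa were lower in them than in the other libraries of the same time at 0, 7 and 10 dpa, and pkp2 was higher at all 3 times. Of all genes tested 17.3% were lower and 36.1% higher in them in this way. For dsc2l the log2 difference was -1.04 at 0 dpa, -0.91 at 7 dpa and -0.69 at 10 dpa, and for pkp2 it was 1.02, 2.00 and 2.01. With these libraries the F test called dsg2.1 alone (adjusted p = 0.0196, and 0.0752, 0.0693 and 0.0638 without 0 dpa replicate 2, 0 dpa replicate 3 or 3 dpa replicate 3). Without all 4 it called dsg2.1 (0.00106), pkp3a (0.000324), jupa (0.00223) and dsc2l (0.0104), and pkp2 remained uncalled (0.111). At 14 dpa none of the 5 was called with them, although 3 had an unadjusted p under 0.05 in limma (29.6% of all genes). Without them 5 of 5 were lower than at 0 dpa (background 2.58%), with a median log2 change of -1.02 in place of -0.75. Those changes were -1.36 ± 0.35 for dsc2l (adjusted p = 0.0208), -1.02 ± 0.22 for dsg2.1 (0.0117), -0.96 ± 0.17 for pkp3a (0.00518), -0.54 ± 0.17 for jupa (0.0414) and -1.52 ± 0.48 for pkp2 (0.0381). Weighting libraries by their spread, with all 14 kept, also gave 5 of 5 lower at 14 dpa (background 3.86%). Median-of-ratios scaling and quantile normalization called none (backgrounds 2.24% and 1.41%). The family's median log2 changes with these were -1.07 and -0.72.

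**Figure D3:**
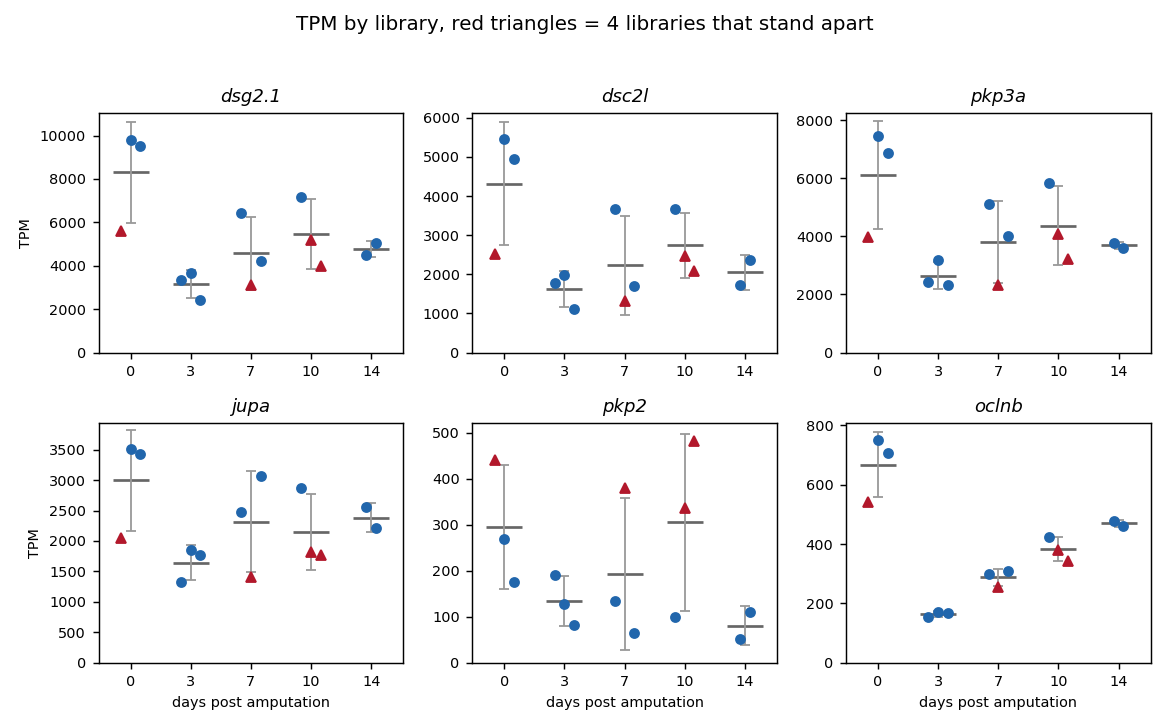
TPM of the 5 desmosomal genes and oclnb against days post amputation, 1 point per library, with bars at the mean and whiskers for the SD. Red triangles are the 4 libraries that stand apart; they sit low for dsg2.1, dsc2l, pkp3a and jupa and high for pkp2, and at 14 dpa there is no such library.

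Cadherins moved apart from the epithelial families: 4 of 6 rose and 2 fell at 3 dpa (35.0% and 19.6% of all genes), with a median log2 change of 1.79. cdh2 was at 27.1, 20.5 and 14.2 TPM at 0 dpa, 376, 348 and 296 at 3 dpa, 146, 193 and 125 at 7 dpa, 104, 110.5 and 126 at 10 dpa and 48.0 and 48.3 at 14 dpa. cdh2 encodes N-cadherin, the classical cadherin of mesenchymal and neural cells. Every library after 0 dpa exceeded the 0 dpa range, the 3 dpa libraries were highest, and of all pairs of times 7 and 10 dpa alone overlapped. The mean of 3 dpa was 16.5-fold that of 0 dpa, and that of 14 dpa 2.34-fold. The log2 change was 4.02 ± 0.21 (adjusted p = 1.89e-08) at 3 dpa and 2.87 ± 0.21 (adjusted p = 8.47e-07) at 7 dpa, and the slope from 3 to 14 dpa was -0.25 ± 0.02 (adjusted p = 2.32e-06) per day. Fibroblast markers followed the same order of times in their sums, apart from an overlap of 3 with 7 dpa and of 7 with 10 dpa. Most of these fibroblast sums came from col1a2. Osteoblast marker sums ran in this order too, with an overlap of 7 with 10 dpa alone. Endothelial marker sums did so with an overlap of 3 with 7 dpa alone. The part of any of these cell types in the cdh2 values was not tested.

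cdh1 was at 1623, 1167 and 1085 TPM at 0 dpa, 799, 722 and 812 at 3 dpa, 816, 1062 and 738 at 7 dpa, 954, 1141 and 1036 at 10 dpa and 1281 and 1316 at 14 dpa. cdh1 encodes E-cadherin, the epithelial cadherin. Its 3 dpa libraries were all below those of 0 dpa, and 14 dpa lay within the 0 dpa range. The change was -0.71 ± 0.16 (adjusted p = 0.00237) at 3 dpa. At 7 dpa it was -0.56 ± 0.16 (adjusted p = 0.0180), a call lost without 0 dpa replicate 1 (adjusted p = 0.0579), without 7 dpa replicate 1 or 3 (0.0558 and 0.0761) or with quantile normalization (0.0915). E-cadherin remained the most abundant cadherin per length in every library. Its ratio to cdh2 was 57.0 to 76.4 at 0 dpa, 2.08 to 2.74 at 3 dpa, 5.499 to 5.90 at 7 dpa, 8.21 to 10.3 at 10 dpa and 26.7 to 27.2 at 14 dpa, so no pair of times overlapped. cdh2 made up 1.22% to 1.63% of cadherin TPM at 0 dpa, 21.9% to 25.9% at 3 dpa and 3.22% to 3.28% at 14 dpa, while the sum of the 6 cadherins was 1159 to 1723, 1344 to 1458 and 1464 to 1501 TPM.

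cdh11 was at 31.1, 25.5 and 18.4 TPM at 0 dpa, 104, 89.5 and 79.8 at 3 dpa, 116, 181 and 119.6 at 7 dpa, 101, 143 and 160 at 10 dpa and 52.8 and 59.9 at 14 dpa. cdh11 is a cadherin of osteoblasts and other mesenchymal cells. cdh7a was at 9.59, 8.71 and 5.29 TPM at 0 dpa, 77.7, 61.6 and 56.5 at 3 dpa, 61.8, 109 and 64.5 at 7 dpa, 43.5, 71.0 and 85.2 at 10 dpa and 19.0 and 32.7 at 14 dpa. Both were above the 0 dpa range in every later library and had their highest means at 7 dpa, where replicate 2, one of the libraries that stand apart, was the highest. For cdh7a the 7 dpa libraries other than replicate 2, at 61.8 and 64.5 TPM, lay within the 3 dpa range. Its highest mean at 7 dpa thus rests on 1 library. For cdh11 these libraries, at 116 and 119.6 TPM, were below its 10 dpa mean of 134.6 TPM, so its highest mean at 7 dpa rests on replicate 2 as well. The changes at 7 dpa were 2.42 ± 0.23 (adjusted p = 6.76e-06) for cdh11 and 3.15 ± 0.31 (adjusted p = 9.70e-06) for cdh7a, a type II cadherin known from the neural crest. cdh11 had no called slope from 3 to 14 dpa (-0.05 ± 0.04, adjusted p = 0.405, per day). The slope of cdh7a was -0.11 ± 0.04 (adjusted p = 0.0484) per day and was lost without 14 dpa replicate 1 (0.258) or 2 (0.137), 3 dpa replicate 1 (0.0877) or 2 (0.0517), 7 dpa replicate 1 (0.0627) or 3 (0.0611) or 10 dpa replicate 1 (0.0702).

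cdh6 was at 30.6, 32.8 and 34.3 TPM at 0 dpa, 99.8, 122 and 109 at 3 dpa, 82.6, 86.9 and 85.1 at 7 dpa, 72.3, 57.2 and 66.3 at 10 dpa and 61.7 and 42.8 at 14 dpa. Its 3 dpa libraries were the highest, and all later ones stayed above the 0 dpa range. The change was 1.73 ± 0.15 (adjusted p = 1.01e-06) at 3 dpa, with a slope of -0.11 ± 0.02 (adjusted p = 0.000285) per day. cdh4, R-cadherin, lay between 1.04 and 3.46 TPM and went down before it went up: its mean was 1.95 TPM at 0 dpa, 1.11 TPM at 3 dpa, 3.15 TPM at 7 dpa and 1.17 TPM at 14 dpa. The 3 to 7 dpa change was 0.97 ± 0.14 (adjusted p = 0.000718), and held under every alternative that tested cdh4. The filter at a mean of 5 TPM left it out. Its fall at 3 dpa (-0.48 ± 0.14, adjusted p = 0.0142) was lost without 0 dpa replicate 3 (adjusted p = 0.0587).

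Connexins fell in 6 and rose in 5 of 14 cases at 3 dpa (4 of 13 without gja5a), with a median log2 change of -0.31. Of all genes 19.6% fell and 35.0% rose there, so the rises were near the background. The sum of the connexins was 1009 to 1095 TPM at 0 dpa, 846 to 921 TPM at 3 dpa and 876 to 882 TPM at 14 dpa. cx43 was at 39.3, 27.7 and 25.0 TPM at 0 dpa, 390, 392 and 391 at 3 dpa, 220, 234 and 201 at 7 dpa, 165, 124 and 139.7 at 10 dpa and 66.9 and 66.6 at 14 dpa. The 3 dpa libraries were the highest and nearly equal, no time overlapped another, and the 14 dpa libraries were still above the 0 dpa range. The mean of 3 dpa was 12.7-fold that of 0 dpa, and that of 14 dpa 2.18-fold. The log2 change was 3.66 ± 0.16 (adjusted p = 3.29e-09) at 3 dpa and 1.12 ± 0.17 (adjusted p = 0.00244) at 14 dpa, and the slope between was -0.24 ± 0.01 (adjusted p = 3.36e-07) per day. The 14 dpa call held in every alternative but a fit of the 0 and 14 dpa libraries alone (adjusted p = 0.0607). cx43 went from 2.48% to 3.59% of connexin TPM at 0 dpa up to 42.3% to 46.3% at 3 dpa, and was at 22.9% to 26.2% at 7 dpa, 12.7% to 18.4% at 10 dpa and 7.59% to 7.60% at 14 dpa.

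cx34.4 was at 144, 167 and 148 TPM at 0 dpa, 48.5, 42.6 and 28.1 at 3 dpa, 106, 83.8 and 90.1 at 7 dpa, 117, 111 and 112 at 10 dpa and 92.8 and 94.6 at 14 dpa. cx30.9 was at 61.6, 47.3 and 50.3 TPM at 0 dpa, 9.47, 9.17 and 15.7 at 3 dpa, 12.1, 20.4 and 13.6 at 7 dpa, 25.8, 21.1 and 21.4 at 10 dpa and 68.3 and 80.4 at 14 dpa. Both had their lowest mean at 3 dpa. cx34.4 stayed below its 0 dpa range in every later library, whereas cx30.9 was above it in both 14 dpa libraries. The changes at 3 dpa were -1.95 ± 0.17 (adjusted p = 1.32e-06) for cx34.4 and -2.15 ± 0.23 (adjusted p = 6.98e-06) for cx30.9. From 10 to 14 dpa cx30.9 rose by 1.67 ± 0.25 (adjusted p = 0.00249), the other late call that held under every alternative. cx30.3, at 175 ± 36.7 TPM (SD, n = 3) at 0 dpa and 42.3 ± 11.9 TPM (SD, n = 3) at 3 dpa, changed by -2.05 ± 0.37 (adjusted p = 0.000553). cx28.8 was at 1.38 and 0.29 TPM on average and changed by -0.89 ± 0.18 (adjusted p = 0.000982).

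gja5b was at 8.44, 6.49 and 5.96 TPM at 0 dpa, 1.84, 2.06 and 1.25 at 3 dpa, 5.98, 7.31 and 5.69 at 7 dpa, 10.6, 7.29 and 7.86 at 10 dpa and 6.98 and 6.27 at 14 dpa. In zebrafish this gene takes part in the striped pigment pattern. The 3 dpa libraries alone stood out, all below every other library, and those of 7, 10 and 14 dpa overlapped 0 dpa. The change was -1.55 ± 0.20 (adjusted p = 3.07e-05) at 3 dpa and 1.44 ± 0.20 (adjusted p = 0.000400) from 3 to 7 dpa. Pigment cell markers summed to 116 to 189 TPM at 0 dpa, 58.9 to 82.6 TPM at 3 dpa and 302 to 317 TPM at 7 dpa, and their part in the gja5b values was not tested. cx39.4, the luchs connexin of the same pattern, was at 1.01 TPM at 0 dpa and 1.83 TPM at 3 dpa on average (0.48 ± 0.17, adjusted p = 0.0272). That call was lost with median-of-ratios scaling (0.0907), quantile normalization (0.348), or without 0 dpa replicate 2 (0.09996) or 3 dpa replicates 2 or 3 (0.0890 and 0.0966).

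cx44.2 was at 7.22, 4.19 and 7.70 TPM at 0 dpa, 15.9, 19.1 and 20.1 at 3 dpa, 16.7, 23.2 and 22.2 at 7 dpa, 16.04, 14.2 and 18.5 at 10 dpa and 25.8 and 12.3 at 14 dpa. Its libraries from 3 dpa on were all above the 0 dpa range. The change was 1.43 ± 0.27 (adjusted p = 0.000700) at 3 dpa. gja5a, related to a mammalian connexin of arterial endothelium, was at 1.46, 1.02 and 1.06 TPM at 3 dpa and at or below 0.66 TPM elsewhere, values that brought it into the set. cx43.4 stayed between 107 and 193 TPM, and its call at 3 dpa (0.34 ± 0.13, adjusted p = 0.0343) was lost with median-of-ratios scaling (log2 change 0.08, adjusted p = 0.530), on leaving out 0 dpa replicate 2 or 3 (0.159 and 0.0763), 3 dpa replicate 1 or 3 (0.111 and 0.0826), and with variances that do not follow the mean (0.0550). cx32.2, cx47.1 and cx52.9 were not called at 3 dpa, with log2 changes of -0.78 ± 0.35, 0.16 ± 0.44 and 0.38 ± 0.17. cx32.2 was called lower with median-of-ratios scaling (-1.01, adjusted p = 0.0176), quantile normalization (-1.11, 0.00890) and library weights (-0.67, 0.0173).

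**Figure D4:**
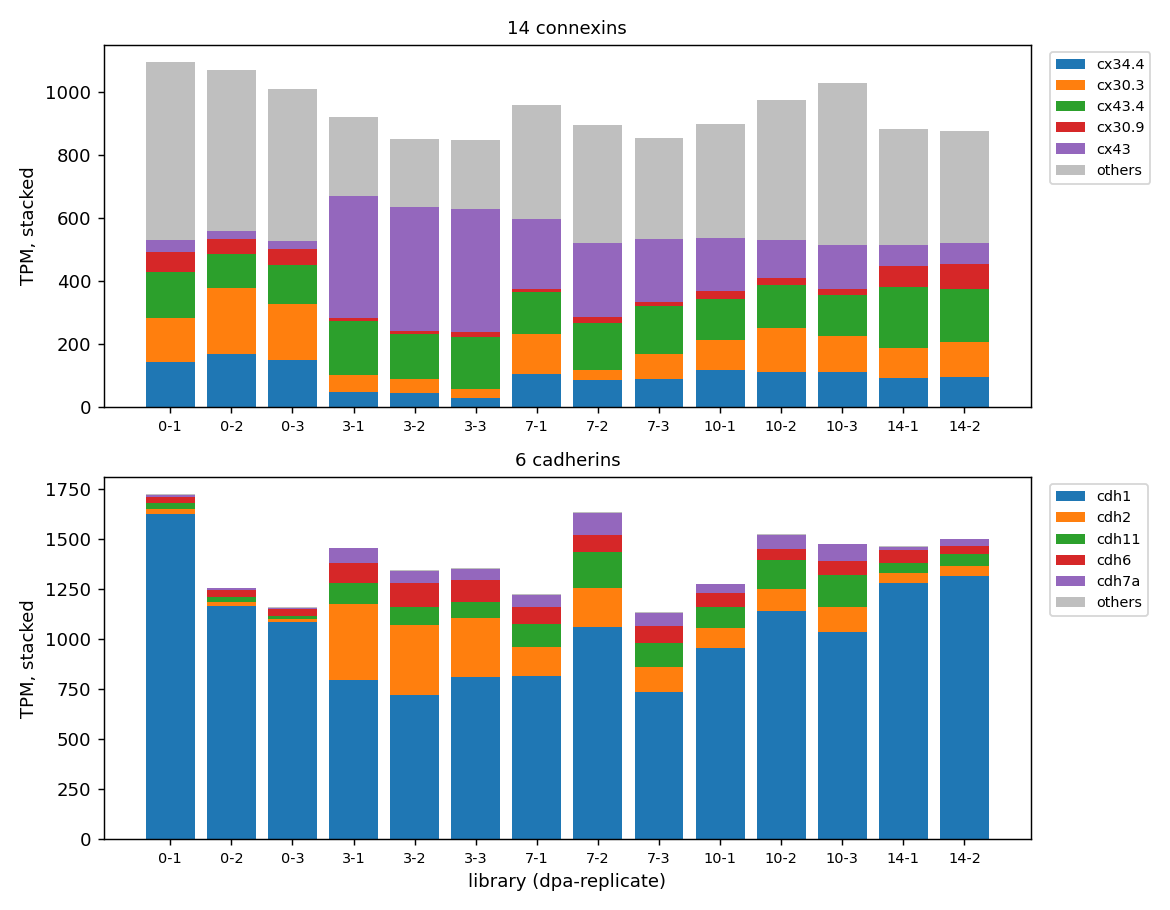
Stacked TPM of the 14 connexins (top) and 6 cadherins (bottom) in each of 14 libraries, named by days post amputation and replicate; the named genes have a colour each and the rest are grey. At 3 dpa cx43 takes 42.3% to 46.3% of the connexin bar and cdh2 21.9% to 25.9% of the cadherin bar, while the whole bars stay within 846 to 1095 and 1136 to 1723 TPM.

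At 14 dpa 12 genes were called against 0 dpa, 9 higher and 3 lower, and none of the 12 calls held under every alternative. The higher ones were cdh2, cdh11, cdh6, cdh7a, cx43, cx44.2, cx43.4, cldnd1a and cldnc, and the lower ones included cx34.4 and cldni. cdh11 changed by 1.17 ± 0.26 (adjusted p = 0.0150), with 0.0526 on leaving out replicate 3 of 0 dpa, 0.0935 on leaving out replicate 1 of 14 dpa and 0.104 on leaving out replicate 2 of 14 dpa. cdh2 changed by 1.23 ± 0.23 (adjusted p = 0.00741), with 0.0802 on leaving out replicate 1 of 14 dpa and 0.0616 on leaving out replicate 2 of 14 dpa. cdh6 changed by 0.64 ± 0.16 (adjusted p = 0.0274), with 0.0738 on leaving out replicate 2 of 0 dpa, 0.0582 on leaving out replicate 3 of 0 dpa and 0.315 on leaving out replicate 1 of 14 dpa. cdh7a changed by 1.59 ± 0.35 (adjusted p = 0.0146), with 0.0529 on leaving out replicate 3 of 0 dpa and 0.132 on leaving out replicate 2 of 14 dpa. cldnd1a changed by 0.89 ± 0.20 (adjusted p = 0.0161), with 0.0547 on leaving out replicate 2 of 0 dpa, 0.0600 on leaving out replicate 3 of 0 dpa, 0.119 on leaving out replicate 1 of 14 dpa and 0.0968 on leaving out replicate 2 of 14 dpa. cx34.4 changed by -0.70 ± 0.19 (adjusted p = 0.0362), with 0.120 on leaving out replicate 2 of 0 dpa, 0.0821 on leaving out replicate 3 of 0 dpa, 0.0510 on leaving out replicate 2 of 10 dpa, 0.05002 on leaving out replicate 3 of 10 dpa, 0.211 on leaving out replicate 1 of 14 dpa and 0.139 on leaving out replicate 2 of 14 dpa. cx43.4 changed by 0.52 ± 0.14 (adjusted p = 0.0351), with 0.122 on leaving out replicate 2 of 0 dpa, 0.0891 on leaving out replicate 3 of 0 dpa, 0.284 on leaving out replicate 1 of 14 dpa and 0.0903 on leaving out replicate 2 of 14 dpa. cx44.2 changed by 1.39 ± 0.30 (adjusted p = 0.0138), with 0.0519 on leaving out replicate 2 of 0 dpa and 0.194 on leaving out replicate 1 of 14 dpa. A fit of the 0 and 14 dpa libraries alone called none of the 49, and median-of-ratios scaling ended the calls of cdh6 (0.339), cldnd1a (0.0534), cldnc (0.138) and cx43.4 (0.409). Quantile normalization ended these too (0.344, 0.130, 0.240 and 0.163), and those of cdh11 (0.0831), cdh7a (0.0847), cx44.2 (0.0734) and cldni (0.192). For comparison, 36 of the 42 calls at 3 dpa held under every alternative in which the gene was tested. At 7 dpa this was so for 23 of 33 and at 10 dpa for 9 of 18. The filter at a mean of 5 TPM tested 39 of the 49 genes. The family medians at 14 dpa were 0.06 for claudins and 0.04 for connexins as deposited, and -0.25 and -0.14 with median-of-ratios scaling, so the sign of both turned with the scale. That of the cadherins was 0.91 and 0.60, and that of the desmosomal genes -0.75 and -1.07.

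**Figure D5:**
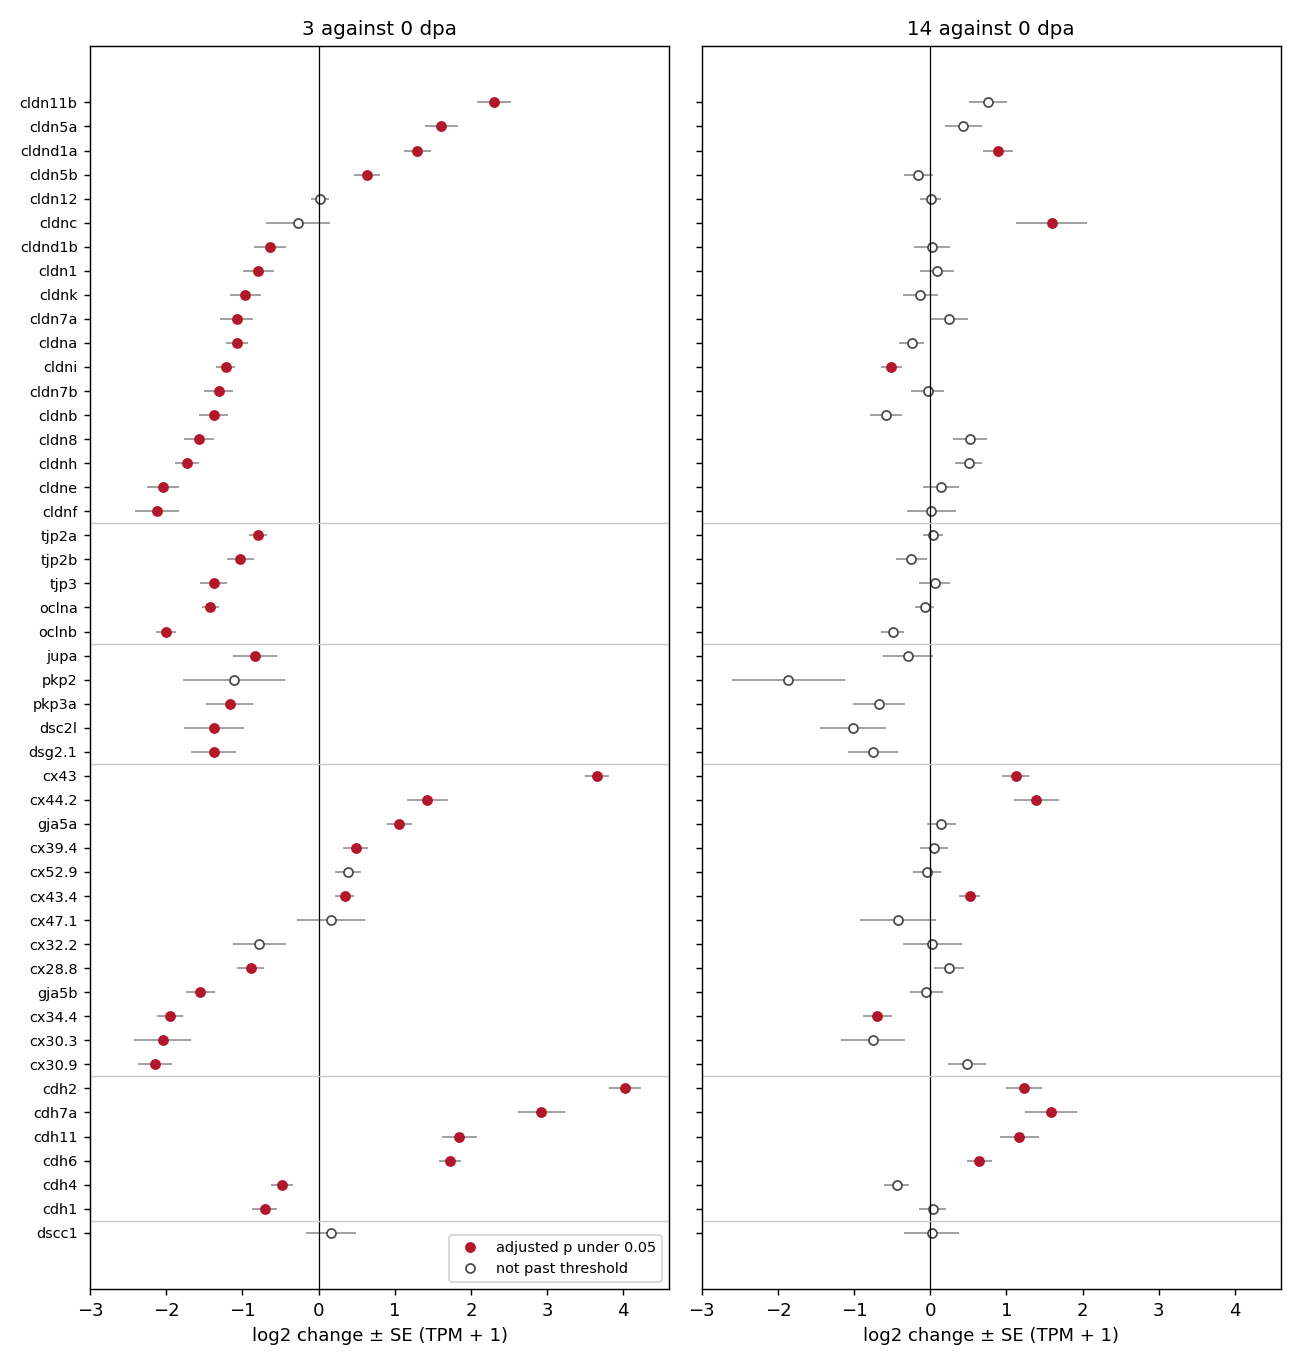
Log2 change of 48 genes with its SE, on log2(TPM + 1), at 3 against 0 dpa (left) and 14 against 0 dpa (right), grouped by family. Filled red points passed an adjusted p of 0.05. The left panel holds 41 such points and the right panel 11, and cdh2 and cx43 lie farthest to the right at 3 dpa.

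Several of these genes lie side by side. By RefSeq gene order in the assembly GRCz12tu, which is not the build of the files and is used for neighbours alone, 10 pairs among the 49 had at most 5 coding genes between them. cldna, cldne and cldnf form one cluster and cldnb, cldnc and cldnh another. Of these 6, 5 fell at 3 dpa (19.6% of all genes) and cldnc did not pass the test. dsc2l and dsg2.1 are direct neighbours and both fell. cx43 lies next to cx32.2, which was at 14.5 ± 4.76 TPM (SD, n = 3) at 0 dpa and 8.18 ± 3.54 TPM (SD, n = 3) at 3 dpa and was not called on the deposited scale. cx30.9, which fell, is 2 coding genes from cx39.4, which was called higher. Near-identical neighbours can share reads, and how Salmon divided these was not tested.

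Genes outside the set that work at the same junctions were taken from lists chosen with results of these data known. Of 42 other tight junction and polarity genes 22 were tested, and 5 rose and 12 fell at 3 dpa (median log2 change -0.89). Of all genes tested 35.0% rose and 19.6% fell there. f11r.1, the JAM-A relative, went from 605 ± 19.2 to 281 ± 38.0 TPM (SD, n = 3), cingulin (cgnb) changed by -1.79 ± 0.25, and the Crumbs polarity gene crb3b by -1.87 ± 0.14. jam3b, marveld1, esama, pard6gb and magi2a were the 5 that rose. Of 14 adherens junction partners tested (22 listed) 7 rose and 3 fell, with a median of 0.78. The β-catenin genes ctnnb1 and ctnnb2, which also carry Wnt signals, rose by 1.81 ± 0.10 and 2.02 ± 0.09, whereas α-catenin (ctnna1) changed by -0.57 ± 0.14 and vinculin a (vcla) by -2.53 ± 0.37.

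Of 10 desmosome and hemidesmosome partners tested (16 listed), 5 fell and 1 rose (median -1.10), where 19.6% and 35.0% of all genes did. The plakin genes ppl and evpla changed by -1.68 ± 0.41 and -1.39 ± 0.46, and the hemidesmosomal collagen col17a1a by -2.81 ± 0.29, while plectin (pleca) was the one that rose, by 0.88 ± 0.33. Without the 4 libraries that stand apart 7 of these 10 fell (20.8% of all genes). With median-of-ratios scaling 6 fell and 0 rose (26.6% and 26.1% of all genes), so the pleca call was lost. All 4 atypical cadherins tested (21 listed), celsr2, fat1a, fat3a and clstn1, rose, and panx1a, the 1 pannexin tested of 4 listed, was not called (-0.13 ± 0.27). Of 18 regulators of epithelial and mesenchymal state tested (23 listed), 8 rose and 5 fell (35.0% and 19.6% of all genes), with a median of 0.39. Among them tp63, grhl2a, ovol1a, ehf and zeb1b were not called. The mesenchymal factors prrx1b, twist1a and snai1a rose by 4.30 ± 0.20, 3.19 ± 0.18 and 3.08 ± 0.41, and the epithelial factors grhl1 and esrp1 changed by -1.13 ± 0.17 and -1.11 ± 0.13.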

How the data were processed

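Values are TPM per gene in a table that the authors deposited for 14 libraries. The listed 14836 genes sum to 1000000 in 0 dpa replicate 1, the library that was summed. Per the submitters' processing notes, Salmon 1.4.0, cutadapt 3.5 and Trim Galore 0.6.7 were used, with danRer11 as the genome build and no order or role given; how transcripts were summed to genes, and the annotation, are not given in the sources used here. Salmon estimates abundances and divides reads between similar transcripts, so values of near-identical claudins, connexins or duplicated genes carry an uncertainty that the table does not show. Each of the 14 columns was matched to its sample by name, and 0 columns were left out.

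Members were those of the symbol rule stated at the start, and the members, gene lists and markers were chosen with earlier results of these data known. From each family the 6 members with the smallest F test p among those with a mean of at least 5 TPM at some time, and a list of well known members, are given in every library; others are given by level and call. 1 member is not reported here and is left out of the figures' named genes; counts, sums and medians include it. Genes of at least 1 TPM in at least 2 libraries (11272) entered limma 3.58.1 in R 4.3.3 on log2(TPM + 1), with 1 mean per time, variances moderated with a trend on mean expression, two-sided tests and Benjamini-Hochberg adjustment over all genes; slopes were fitted over 3.5, 7, 10 and 14 days. The scripts were tested on simulated data. Whether replicate numbers pair the libraries could not be told from correlations of their deviations from the time means. Between libraries with the same number these ran from -0.772 to 0.571, and 10 of 26 were above 0.1. With different numbers they ran as widely, from -0.822 to 0.787. Alternatives were pseudocounts of 0.1 and 5, quantile normalization or scaling by median ratios, weighted libraries, no trend in the variances, a filter at a mean of 5 TPM or none, a replicate block, fits of both groups alone, other codings of time in the slope, and leaving out each library or the 4 that stand apart. Gene names and neighbours came from RefSeq tables, which matched 49 of 49 members.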

Additional observations from a re-analysis of the deposited data

How the results depend on the processing

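Calls of single genes were repeated 4062 times over the alternatives: 3705 held, 357 missed the threshold and 0 turned sign. The F tests of the 49 lost 18 calls and gained 20 over 1166 repeats. Contrasts not called as reported were called in 169 of 5560 repeats and turned sign in 232. The count of genes called at 14 against 0 dpa was 12 as reported (11.2% of all genes). It was 5 with quantile normalization (3.63%), 25 with library weights (44.2%) and 0 in a fit of both groups alone (2.24%). At 14 against 10 dpa it was 14 as reported (8.77%), 25 with library weights (44.6%) and 6 in a fit of both groups alone (3.58%). Library weights also gave 35 calls at 10 against 0 dpa in place of 18 (57.1% of all genes). They gave 24 at 7 against 3 dpa in place of 15 (27.4%) and 22 at 10 against 7 dpa in place of 0 (28.5%). Leaving out 1 library of 0 to 10 dpa gave 38 to 43 calls at 3 dpa (45.4% to 56.6% of all genes) and 27 to 33 at 7 dpa (22.1% to 33.9%). It gave 16 to 20 at 10 dpa (10.6% to 23.3%) and 4 to 16 at 14 dpa (4.33% to 17.6%). The count was then 9 to 15 at 7 against 3 dpa (11.7% to 19.2%) and 7 to 16 at 14 against 10 dpa (3.41% to 11.3%). For the slope it was 28 to 33 (23.5% to 32.0%). The F test called 37 to 41, beside 47.6% of all genes with every library kept. Fits without replicate 1 or 2 of 14 dpa are outside these ranges, since they leave 1 library there. The median log2 change of the 49 at 14 against 0 dpa was 0.06 without replicate 1 and -0.01 without replicate 2, in place of 0.03. The cause of these differences was not tested, but fits of both groups alone and without a library have fewer libraries by construction.

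With a replicate block the counts were 42 at 3 dpa (52.5% of all genes), 31 at 7 dpa (28.2%), 18 at 10 dpa (14.6%) and 9 at 14 dpa (7.70%). They were 13 at 7 against 3 dpa (14.4%), 0 at 10 against 7 dpa (0%) and 10 at 14 against 10 dpa (7.25%). The slope was called for 29 (28.0%). The F test called 39, as it did without a block, where 47.6% of all genes were called. Whether libraries of a block share more than a number is not known. 14 dpa has 2 libraries, and where 1 of them was left out, or 10 dpa was left with 1 by dropping the 4 that stand apart, the lone library was assumed to vary like the other times. The read depth is unknown, so the precision of genes near 1 TPM, such as gja5a, cx47.1 and cx52.9, could not be given.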

Other observations

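Some genes that matched the symbols were outside the comparisons because they stayed below the limit, and others were tested but not called in the F test. cldn11a reached 1 TPM in 1 library, at 1.06 TPM, while its duplicate cldn11b was at 3.04 to 24.0 TPM in all 14 libraries. cdh10a, cdh23 and cx23 were never listed at 0 yet stayed at or below 0.80 TPM. The replication factor dscc1, in the set by its spelling, was at 2.96 to 8.24 TPM and was higher in the 4 libraries that stand apart than in the others at each of 0, 7 and 10 dpa. The same held for 36.1% of all genes tested. cx47.1, whose mammalian relative is a connexin of oligodendrocytes, was listed at 0 in 7 dpa replicate 2 and at 3.48 TPM in 7 dpa replicate 1.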
